A study of Mus musculus with 58 samples.

Results

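The genes described here were 39 genes of the kinetochore and the spindle checkpoint, named by symbol from what their proteins are known to do and found, all 39, among the 55376 gene symbols of the RNA-seq count tables. Kinetochores are the protein assemblies built on centromeric chromatin that tie each chromosome to the microtubules of the spindle in mitosis. Checkpoint kinases and their partners sit on kinetochores that are not yet attached and hold back the anaphase-promoting complex, so that chromosomes separate only once all are attached. Most hematopoietic stem cells (HSCs) of an adult are not dividing, and many of these genes are transcribed mainly from S phase to mitosis, so their RNA is often used as a sign of cells in cycle.

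HSCs came from the bone marrow of male C57BL/6 mice, sorted as lineage-negative Sca-1+ c-Kit+ cells that were CD34-, Flk2- and CD150+. Old mice (24 to 26 months) had been fed ad libitum (OAL, 4 libraries), kept on lifelong 40% caloric restriction (CR) from the age of 3 to 4 months (OCR, 4 libraries), or refed ad libitum for 4 weeks after lifelong CR (OCRRF, 2 libraries). Young mice (3 to 4 months) had been fed ad libitum (YAL, 4 libraries), restricted by 20% for 1 week and by 40% for the next 3 weeks (YCR, 4 libraries), or refed for 4 weeks after it (YCRRF, 4 libraries). For the knockdowns, HSCs of aged ad libitum mice were cultured, infected with a virus carrying a hairpin against Kdr and a GFP reporter (KdrKD, 4 libraries) or its scramble (GScr, 2 libraries), transplanted into irradiated CD45.1 female recipients, and sorted again as donor CD45.2+ HSCs that were CD48- and CD150+. A further set received the Kdr hairpin and 1 of 2 hairpins against Bmpr1a with an mCherry reporter (DKD, 2 libraries per hairpin), or both scrambles (DScr, 2 libraries). Kdr encodes the VEGF receptor VEGFR2, Bmpr1a encodes a BMP receptor, and a single Kdr hairpin stood behind all knockdown libraries. ATAC-seq covered 4 OCR and 2 OCRRF libraries, H3K4me3 and H3K27me3 2 OCR libraries each, and PU.1 ChIP-seq 2 libraries each of OAL, OCR and OCRRF. For ATAC-seq and the histone marks, HSCs of OAL mice were not analysed here.

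RNA-seq libraries of the diet groups held 11102898 to 36579392 counts on genes, and those of the transplanted cells 35657999 to 44780217. Levels are given as CPM, counts relative to the library total after scaling by trimmed means, and the intervals around fold changes are standard errors from edgeR. A gene was called at an adjusted p below 0.05 with a fold change above 1.2. The labels number the replicates but do not say that each is a separate mouse or pool, so p-values measure the spread between these libraries only. HSC markers (10 genes, Kit, Ly6a, Slamf1 and Procr among them) summed to 4142 to 5389 CPM in the old libraries, and markers of B and T cells to at most 12.9 CPM. Old and young libraries differed as sets: the summed level of 1971 olfactory and vomeronasal receptor genes, which HSCs are not known to use, was 548 to 1398 CPM in the old libraries and 73.2 to 580 CPM in the young ones.

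Promoter sequences are shown first, because the genes of this set moved together and 2 sequence elements are known to mark late cell cycle genes, the cell cycle gene homology region (CHR) and the CCAAT box. RefSeq promoters on GRCm38.p6, reaching from 250 bases before to 50 bases after the start, were at hand for 34 of the 39 genes. The CHR (TTTGAA or TTCGAA, on either strand) was in 17 of the 34 (50%), against 21.7% of all 27025 genes with such a promoter. CCAAT on either strand was in 24 of the 34 (70.6%), against 41.1% of all, and both elements were in 14 (41.2%), against 8.61% of all. Within the 100 bases around the start the CHR was in 14 (41.2%), against 6.12% of all. An E2F element (TTTCCCGC, TTTGGCGC, TTTGCCGC or TTTCGCGC, on either strand) was in 3 of the 34 (8.82%), against 2.61% of all. The promoters of Cenpa, Cenpf, Bub1, Cdca8 and Ttk hold both a CHR within 21 bases downstream of the RefSeq start and CCAAT boxes before it. That of Zwint holds 2 CCAAT boxes and no CHR, and is shown beside them because its RNA behaved otherwise. Each runs from 170 bases before to 30 bases after the RefSeq start, 5′ to 3′ on the gene's own strand, with CHR and CCAAT letters (either strand, also where they run into each other) in capitals. A match of letters is a description and not a measured binding site.
Cenpa, chr5:30666716-30666915, plus strand: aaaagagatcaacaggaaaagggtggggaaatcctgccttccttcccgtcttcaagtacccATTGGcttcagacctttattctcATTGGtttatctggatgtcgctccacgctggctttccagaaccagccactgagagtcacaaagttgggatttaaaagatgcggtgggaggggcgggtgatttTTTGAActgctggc
Cenpf, chr1:189688057-189688256, minus strand: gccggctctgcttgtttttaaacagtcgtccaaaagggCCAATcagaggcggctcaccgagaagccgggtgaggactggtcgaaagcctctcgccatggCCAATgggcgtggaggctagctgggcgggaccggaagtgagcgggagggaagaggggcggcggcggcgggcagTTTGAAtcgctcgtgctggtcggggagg
Bub1, chr2:127831830-127832029, minus strand: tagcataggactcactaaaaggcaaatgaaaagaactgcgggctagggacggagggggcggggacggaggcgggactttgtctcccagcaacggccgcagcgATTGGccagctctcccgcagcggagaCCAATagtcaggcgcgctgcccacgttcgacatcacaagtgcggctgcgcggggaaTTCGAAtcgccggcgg
Cdca8, chr4:124936888-124937087, minus strand: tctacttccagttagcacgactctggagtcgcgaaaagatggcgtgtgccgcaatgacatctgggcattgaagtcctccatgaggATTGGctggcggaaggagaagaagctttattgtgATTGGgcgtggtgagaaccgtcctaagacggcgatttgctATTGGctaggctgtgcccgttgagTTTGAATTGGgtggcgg
Ttk, chr9:83834519-83834718, plus strand: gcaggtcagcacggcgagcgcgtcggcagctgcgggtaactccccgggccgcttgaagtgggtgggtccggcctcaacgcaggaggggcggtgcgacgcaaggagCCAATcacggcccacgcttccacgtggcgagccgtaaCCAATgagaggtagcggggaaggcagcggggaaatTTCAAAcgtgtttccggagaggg
Zwint, chr10:72654676-72654875, plus strand: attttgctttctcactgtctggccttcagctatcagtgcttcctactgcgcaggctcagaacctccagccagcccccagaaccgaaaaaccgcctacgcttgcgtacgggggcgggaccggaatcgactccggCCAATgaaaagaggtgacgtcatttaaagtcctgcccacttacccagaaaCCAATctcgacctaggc
Among the 26 genes with a promoter that rose in OCR HSCs (below), 15 held a CHR, and among the 8 that were not called 2 did. Those 2, Bub3 and Cenpl, also held a CCAAT box, unlike Zwint in having both elements. Nuf2 and Birc5, which rose, held neither a CHR nor a CCAAT box. Knl1, with the largest rise, held a CHR and no CCAAT box.

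The first question was whether lifelong CR changed the RNA of these genes in old HSCs. In OCR HSCs, 31 of the 39 genes rose and none fell, beside 689 of 27150 genes tested (2.54%) that rose. The median log2 fold change of the 39 was 1.11, beside 0.02 over all genes tested. The 39 genes together summed to 780 to 844 CPM in OAL HSCs and to 1100 to 1382 CPM in OCR HSCs. After refeeding, 31 of the 39 fell in OCRRF HSCs against OCR HSCs and none rose, beside 884 of 32577 genes tested (2.71%) that fell, and the sum was 752 and 768 CPM. The median log2 fold change was -1.18 for the 39 and 0.11 over all genes tested. Both comparisons use the same 4 OCR libraries, so a high OCR level enters both and the second is not independent of the first. In bulk RNA of a sorted population, fewer cells that hold a transcript and less of it per cell cannot be told apart. In 1 fit of all 6 diet groups, in which the wider spread of the young libraries also counts, 13 genes rose in OCR and 4 fell in OCRRF. Over all genes that fit called 212 and 64 in either direction, beside 1511 and 1110 in the separate fits.

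**Figure D1:**
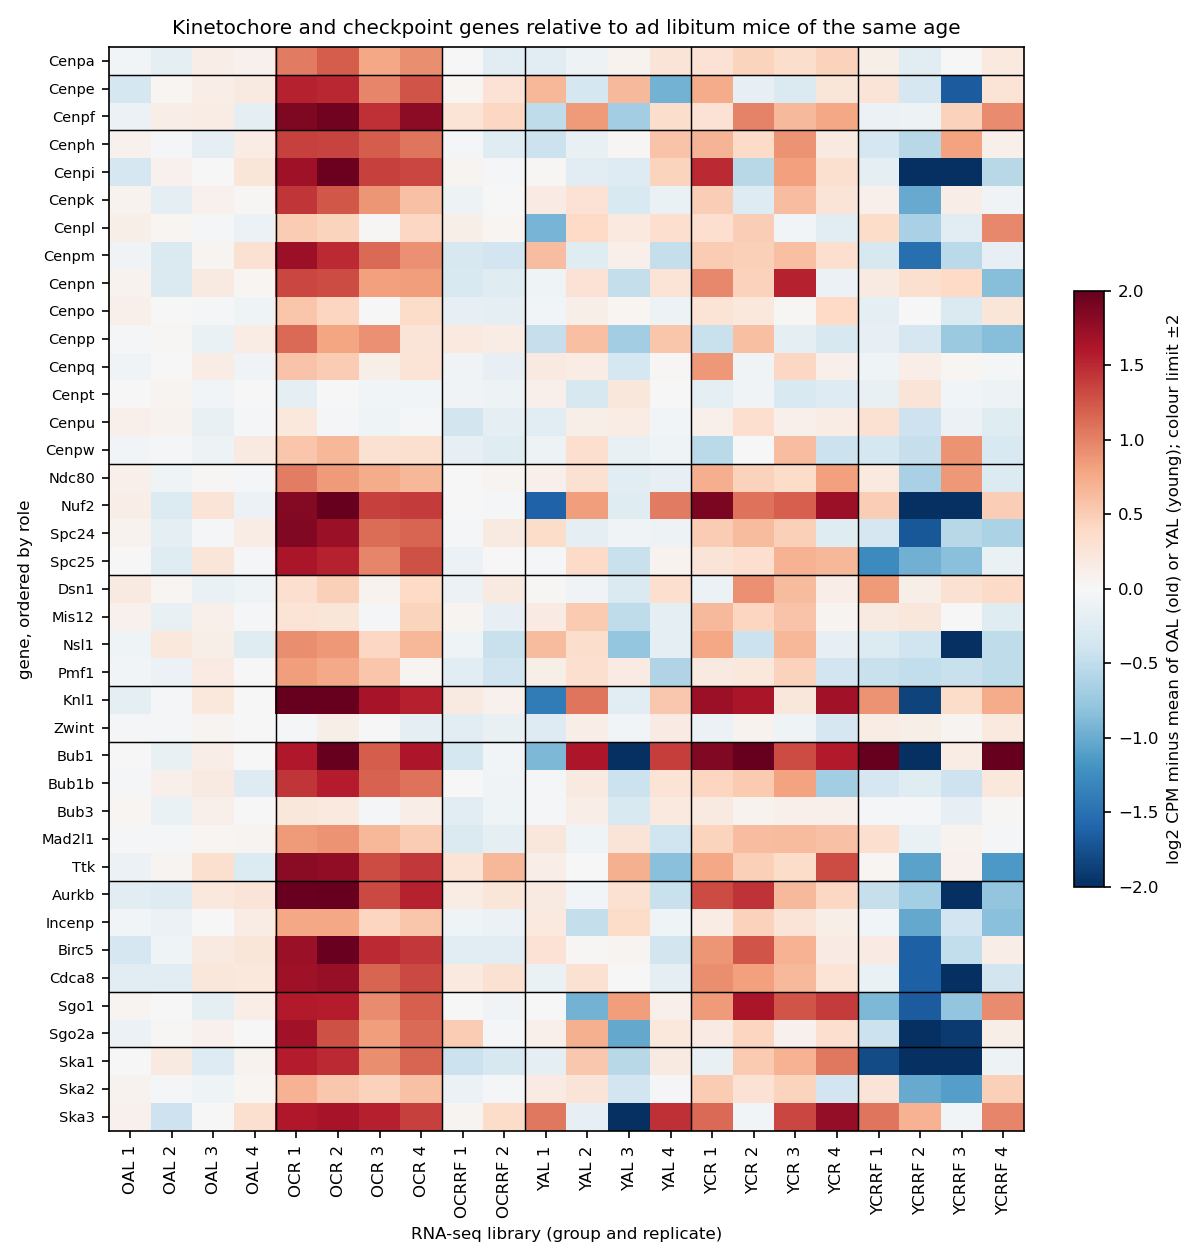
Level of each of the 39 genes in every RNA-seq library of the 6 diet groups, as log2 CPM minus the mean of OAL (old libraries) or YAL (young libraries). Rows are genes ordered by role and columns are libraries; red is above and blue below the ad libitum mean, with colours ending at 2 on either side. The 4 OCR columns are red in most rows, the OCRRF columns are near the OAL mean, and the young columns vary from library to library.

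Cenpa encodes the histone H3 variant that marks where a kinetochore is built. Its level was 21.4, 19.7, 24.4 and 23.5 CPM in the OAL libraries, 45.5, 51.4, 38.1 and 42.5 in OCR, and 22.1 and 19.2 in OCRRF. No OCR library overlapped with either of the other groups, and Cenpa rose by a log2 fold change of 1.01 ± 0.11 in OCR (adjusted p = 1.45e-07) and fell by 1.16 ± 0.15 in OCRRF (adjusted p = 1.40e-06). Cenpf, a large protein of the outer kinetochore that binds microtubules and dynein regulators, was at 9.43, 11.2, 11.4 and 9.04 CPM in OAL, 37.4, 38.9, 28.3 and 35.4 in OCR, and 12.3 and 13.6 in OCRRF. All 4 OCR libraries were above 28 CPM and no other old library was above 14 CPM. Its log2 fold change was 1.79 ± 0.12 in OCR (adjusted p = 1.52e-10) and -1.50 ± 0.16 in OCRRF (adjusted p = 4.76e-08). Cenpe, a kinesin motor that moves chromosomes to the spindle equator, was at 7.96, 10.4, 11.2 and 11.4 CPM in OAL, 29.7, 28.9, 19.9 and 24.3 in OCR, and 10.4 and 12.3 in OCRRF. It too was separate in OCR, with a log2 fold change of 1.35 ± 0.14 and, after refeeding, of -1.24 ± 0.17.

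The inner kinetochore, the constitutive network of proteins that stays on the centromere through the cell cycle, moved unevenly. Of its 12 genes, 8 rose in OCR (median log2 fold change 0.65) and 8 fell after refeeding (median -0.71). These were not all the same genes. Cenpo was called only after refeeding (-0.58 ± 0.15, adjusted p = 0.0247). Cenpp was called only in OCR, with -0.69 ± 0.23 after refeeding (adjusted p = 0.0900). Cenpi had the largest rise, from 3.33, 4.47, 4.21 and 5.02 CPM in OAL to 13.8, 16.6, 10.9 and 10.7 in OCR, and was at 4.39 and 4.10 in OCRRF. Its groups did not overlap, and the log2 fold change was 1.63 ± 0.17 in OCR (adjusted p = 1.19e-07) and -1.67 ± 0.22 in OCRRF. Cenpm, Cenph, Cenpn and Cenpk, also of this network, had log2 fold changes of 1.35 ± 0.17, 1.28 ± 0.15, 1.11 ± 0.16 and 1.09 ± 0.15 in OCR. Cenpp, Cenpw and Cenpq rose by 0.82 ± 0.18, 0.48 ± 0.12 and 0.39 ± 0.11, the last with overlapping groups. The 4 not called were Cenpl (0.37 ± 0.12, adjusted p = 0.0681), Cenpo (0.37 ± 0.11, adjusted p = 0.0506), Cenpu (0.03 ± 0.11) and Cenpt (-0.06 ± 0.08). Cenpu, at 26.2, 25.9, 22.2 and 24.0 CPM in OAL, 28.3, 24.1, 23.2 and 23.8 in OCR, and 19.0 and 21.7 in OCRRF, overlapped between OAL and OCR. Both of its OCRRF libraries lay below all OCR ones, though edgeR did not call it there (-0.35 ± 0.15, adjusted p = 0.229). Exons of Cenpu share 26.7% of their bases with Primpol on the other strand, and those of Cenpo 22.5% with Adcy3 and Ptrhd1. The libraries do not mark strand, so reads of the shared stretches cannot be told apart. Cenpt, a DNA-binding member of the network that reaches out to the NDC80 complex, was within 1 SE of 0 in both comparisons (-0.07 ± 0.12 after refeeding).

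The NDC80 complex, the rod that grips the microtubule, rose as a whole: all 4 subunits rose in OCR (median log2 fold change 1.45) and all 4 fell in OCRRF (median -1.50). Nuf2 was at 7.47, 5.58, 8.12 and 6.24 CPM in OAL, 24.3, 27.8, 17.6 and 18.0 in OCR, and 6.83 and 6.59 in OCRRF. The OCR values did not overlap with the others, and its log2 fold change was 1.70 ± 0.16 in OCR (adjusted p = 1.24e-08) and -1.77 ± 0.20 in OCRRF (adjusted p = 9.08e-08). Ndc80 itself changed least of the complex, from 12.2, 10.7, 11.6 and 11.0 CPM in OAL to 23.2, 20.6, 19.1 and 18.0 in OCR, with 11.3 and 11.9 in OCRRF. That is a log2 fold change of 0.84 ± 0.12 (adjusted p = 2.00e-05), again with no overlap. Spc24 and Spc25, which anchor the rod to the kinetochore, had log2 fold changes of 1.52 ± 0.15 and 1.39 ± 0.14 in OCR, and of -1.50 ± 0.20 and -1.51 ± 0.18 in OCRRF.

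The MIS12 and KNL1 complexes, which join the NDC80 rod to the centromere, held both called and uncalled members in OCR. Of the 4 MIS12 subunits, Nsl1 and Pmf1 rose (0.74 ± 0.14 and 0.59 ± 0.13 on the log2 scale), while Dsn1 (0.34 ± 0.11, adjusted p = 0.0609) and Mis12 (0.26 ± 0.10, adjusted p = 0.172) did not pass. Nsl1 was at 11.1, 13.6, 12.8 and 9.89 CPM in OAL, 22.4, 21.4, 15.7 and 18.6 in OCR, and 11.1 and 8.66 in OCRRF. Its OCR libraries were all above the other old ones, and it fell by 1.04 ± 0.18 on the log2 scale after refeeding (adjusted p = 2.45e-04). Mis12 was at 45.0, 38.3, 45.6 and 41.6 CPM in OAL, 51.4, 50.6, 41.3 and 58.2 in OCR, and 44.4 and 38.0 in OCRRF, with OCR replicate 3 inside the OAL range. Without that library Mis12 passed the test (log2 fold change 0.34, adjusted p = 0.0269). Knl1, the scaffold on which checkpoint proteins gather, had the largest rise of all 39. It was at 6.32, 7.20, 8.47 and 7.31 CPM in OAL, 29.5, 29.5, 22.9 and 21.5 in OCR, and 8.29 and 7.74 in OCRRF. Its log2 fold change was 1.84 ± 0.14 in OCR (adjusted p = 5.86e-10), a 3.57-fold difference of levels, and -1.75 ± 0.18 in OCRRF (adjusted p = 1.98e-08). Zwint, which recruits the checkpoint motor adaptor complex to Knl1, was at 122, 121, 128 and 125 CPM in OAL, 121, 134, 124 and 109 in OCR, and 107 and 112 in OCRRF. OAL and OCR overlapped for Zwint, and its log2 fold change in OCR was -0.01 ± 0.08 (adjusted p = 0.978).

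The spindle checkpoint followed the same division. Bub1, a kinase that loads other checkpoint proteins onto Knl1, was at 4.97, 4.50, 5.46 and 5.02 CPM in OAL, 15.3, 20.9, 11.6 and 15.4 in OCR, and 3.90 and 4.79 in OCRRF. The lowest OCR library was above all OAL and OCRRF libraries, and the log2 fold changes were 1.68 ± 0.16 (adjusted p = 2.93e-08) and -1.93 ± 0.22 (adjusted p = 1.30e-07). Bub1b, which encodes BubR1, a part of the complex that inhibits the anaphase-promoting complex, was at 19.2, 21.1, 22.2 and 16.3 CPM in OAL, 52.8, 58.3, 44.3 and 41.6 in OCR, and 19.8 and 18.6 in OCRRF. It rose by 1.34 ± 0.12 on the log2 scale and fell by 1.42 ± 0.15, without overlap. Ttk, the kinase that starts checkpoint signalling, and Mad2l1, which binds and holds Cdc20, had log2 fold changes of 1.61 ± 0.16 and 0.75 ± 0.10 in OCR, and of -1.18 ± 0.19 and -1.04 ± 0.14 in OCRRF. Bub3, which brings Bub1 and BubR1 to the kinetochore and also serves outside mitosis, was at 144, 128, 151 and 140 CPM in OAL, 164, 160, 138 and 153 in OCR, and 121 and 132 in OCRRF. Its OAL and OCR libraries overlapped (0.15 ± 0.08, adjusted p = 0.412). After refeeding, both OCRRF libraries of Bub3 lay below all OCR ones (-0.35 ± 0.12, adjusted p = 0.116). That was not called with edgeR, while DESeq2 called it.

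All 4 genes of the chromosomal passenger complex, which corrects faulty attachments through the kinase Aurora B, rose in OCR (median log2 fold change 1.60) and fell in OCRRF (median -1.47). Aurkb, the kinase, was at 6.84, 6.66, 9.25 and 9.50 CPM in OAL, 31.4, 32.6, 20.0 and 23.4 in OCR, and 8.81 and 9.46 in OCRRF. The OCR libraries all lay above the other old ones, with a log2 fold change of 1.75 ± 0.16 in OCR (adjusted p = 7.26e-09) and of -1.62 ± 0.19 in OCRRF (adjusted p = 1.92e-07). Birc5, which encodes survivin and ties the complex to centromeric histones, was at 7.36, 8.75, 10.5 and 10.9 CPM in OAL, 30.9, 36.9, 26.3 and 24.9 in OCR, and 7.95 and 7.93 in OCRRF. It had the largest fall of the 39 after refeeding, -1.97 ± 0.18 (adjusted p = 1.52e-09), after a log2 fold change of 1.68 ± 0.14 in OCR. Incenp, the scaffold of the complex, moved least, from 36.1, 34.6, 37.8 and 41.6 CPM in OAL to 63.7, 64.3, 50.3 and 55.1 in OCR, and to 35.1 and 34.4 in OCRRF. Even so its groups were apart and its log2 fold change of 0.65 ± 0.10 passed (adjusted p = 3.67e-05). Cdca8, which encodes borealin, had 1.51 ± 0.14 in OCR and -1.32 ± 0.17 in OCRRF.

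Shugoshins protect cohesin at the centromere, and the SKA complex steadies the NDC80 rod on a shrinking microtubule. Sgo1 was at 5.40, 5.17, 4.59 and 5.72 CPM in OAL, 15.8, 15.6, 10.1 and 12.0 in OCR, and 5.16 and 4.98 in OCRRF, and Sgo2a at 3.62, 3.96, 4.17 and 3.93, at 12.7, 9.52, 7.01 and 8.70, and at 5.63 and 3.83. For both, all OCR libraries lay above all other old libraries, with log2 fold changes of 1.37 ± 0.16 and 1.29 ± 0.18 in OCR (adjusted p = 7.62e-07 and 1.04e-05). Sgo2a shares 35.0% of its exonic bases with Kctd18 on the other strand and resembles its paralog Sgo2b, so its reads are uncertain in part. Ska3 was at 4.17, 2.92, 3.95 and 4.93 CPM in OAL, 12.0, 12.4, 11.7 and 10.3 in OCR, and 4.08 and 5.10 in OCRRF, and Ska2 at 19.9, 18.7, 17.9 and 19.5, at 30.7, 27.6, 26.1 and 28.6, and at 17.6 and 18.7. Neither gene overlapped between OCR and the other old groups. Their log2 fold changes in OCR were 1.55 ± 0.16 and 0.59 ± 0.10, and that of Ska1 1.35 ± 0.21.

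The 8 genes not called in OCR were thus Cenpl, Cenpo, Cenpt, Cenpu, Dsn1, Mis12, Zwint and Bub3. Per kilobase of exon, the highest mean levels of the 39 in OAL HSCs were those of Zwint (28.0 CPM per kb), Bub3 (20.1), Cenpt (15.4) and Mis12 (14.2), all among these 8. The lowest were those of Sgo2a (0.560 CPM per kb), Cenpf (0.665) and Cenpi (0.750), all of which rose. Between these ends the level did not sort the genes. Cenpq (8.85) and Incenp (8.66), next below Mis12, both rose. Dsn1 (8.18), Cenpu (6.15), Cenpo (3.54) and Cenpl (3.16), not called, lay among genes that rose. Taking the OCR libraries singly, the median over the 39 genes of the log2 difference from the OAL mean was 1.37, 1.27, 0.88 and 0.91, so replicates 1 and 2 stood higher than 3 and 4. Leaving out any library of either group left 29 to 35 genes risen. DESeq2, a filter of at least 10 counts in every library, and scaling factors from genes of at least 5 CPM each called 34. The added genes were Cenpl, Cenpo and Dsn1 each time. Between OCRRF and OCR the genes not called with edgeR were the same as in OCR, with Cenpp in place of Cenpo.

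Other genes of the pathway were read from lists by role. Among 24 further kinetochore, centromere and checkpoint genes, 16 rose in OCR and none fell, with a median log2 fold change of 0.62. Kif2c, a microtubule-depolymerizing kinesin at centromeres, and the mitotic kinase Plk1 had the largest values (2.02 ± 0.17 and 1.73 ± 0.16), and Mad2l1bp and Cenpb the lowest (-0.20 ± 0.12 and -0.18 ± 0.11, neither called). Of 18 genes of the anaphase-promoting complex and its partners, the 2 that rose were Ube2c, its E2 enzyme (1.95 ± 0.17), and Fbxo5, its inhibitor Emi1 (0.76 ± 0.12). The core subunits Anapc2 (-0.10 ± 0.08) and Cdc16 (-0.07 ± 0.08) had the lowest values, and the median of the 18 was 0.07. Of 15 cohesin and separase genes 4 rose, separase itself (Espl1, 1.65 ± 0.14) and the cohesin acetyltransferase Esco2 (1.38 ± 0.18) the most, while Pttg1, which encodes securin, was at -0.19 ± 0.09 and Nipbl at -0.17 ± 0.08. After refeeding 15 of the 24, 2 of the 18 and 6 of the 15 fell and none rose, with medians of -0.77, -0.25 and -0.33.

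Markers of cell types and the background moved with some of these groups, and their part in the results was not tested. Of 10 HSC markers 4 fell in OCR and none rose, with sums of 4730 to 5389 CPM in OAL and 4142 to 4854 in OCR. None of 3 markers of multipotent progenitors was called (Flt3 0.42 ± 0.14, adjusted p = 0.0817), and their sums, 129 to 161 CPM in OAL and 119 to 155 in OCR, overlapped. Of 9 erythroid markers 4 fell and 1 rose, with sums of 48.2 to 244 CPM in OAL and 54.4 to 86.2 in OCR. Of 6 markers of granulocyte and monocyte progenitors 1 fell and none rose. The other 5 had values above 0, 3 of them at an unadjusted p below 0.05, so the median of the list was 1.08 while its summed level was 226 to 305 CPM in OAL and 196 to 231 in OCR. Mki67, a proliferation marker outside the set, had a log2 fold change of 1.79 ± 0.11 in OCR, and Kdr one of -1.14 ± 0.13. The receptor gene background was 548 to 765 CPM in OAL, 580 to 1187 in OCR and 1094 to 1398 in OCRRF, and OCR replicate 3, the one with 1187, had the lowest sum over the 39 genes.

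**Figure D2:**
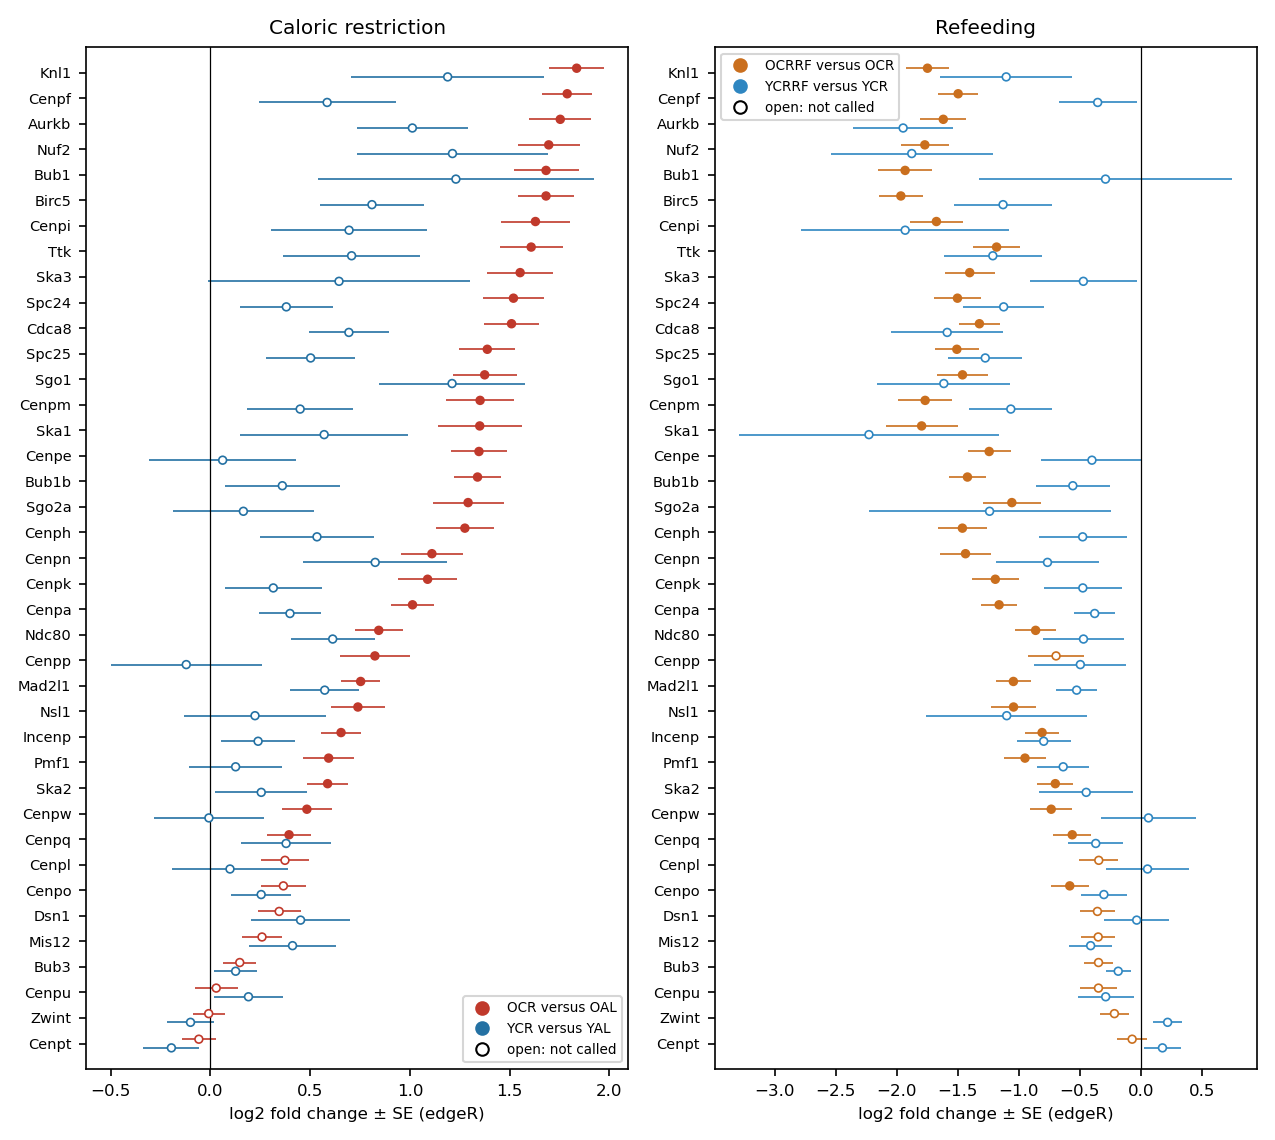
Log2 fold change ± SE (edgeR) of each of the 39 genes, ordered by the change in OCR. Left, restriction in old (OCR versus OAL) and young (YCR versus YAL) mice; right, refeeding in old (OCRRF versus OCR) and young (YCRRF versus YCR) mice. Filled points passed the call and open points did not: 31 are filled in each old comparison and none in either young one.

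Refed old HSCs were also set directly against ad libitum ones. None of the 39 genes was called between OCRRF and OAL HSCs with edgeR, beside 1316 of 31816 genes tested (4.14%). At an unadjusted p below 0.05 with the same fold change, Cenpf (0.32 ± 0.15) and Ttk (0.46 ± 0.20) were higher in OCRRF and Pmf1 (-0.32 ± 0.12) and Cenpu (-0.29 ± 0.12) lower, beside 14% and 6.09% of all genes. The median log2 fold change of the 39 was -0.08, against 0.12 over all genes, and it became 0.06, against 0.26, when scaling factors were taken from genes of at least 5 CPM, so no direction can be given for the set. DESeq2 called 3 of the 39, all lower in OCRRF (Cenpu, Mad2l1 and Pmf1), beside 3835 of all genes. The number of all genes called by edgeR depended on single libraries, with 38 to 385 called when any 1 library was left out and 0 in 1 fit of all groups, and none of the 39 was called in any of these fits. With 2 OCRRF libraries, small differences between these groups cannot be told from none.

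**Figure D3:**
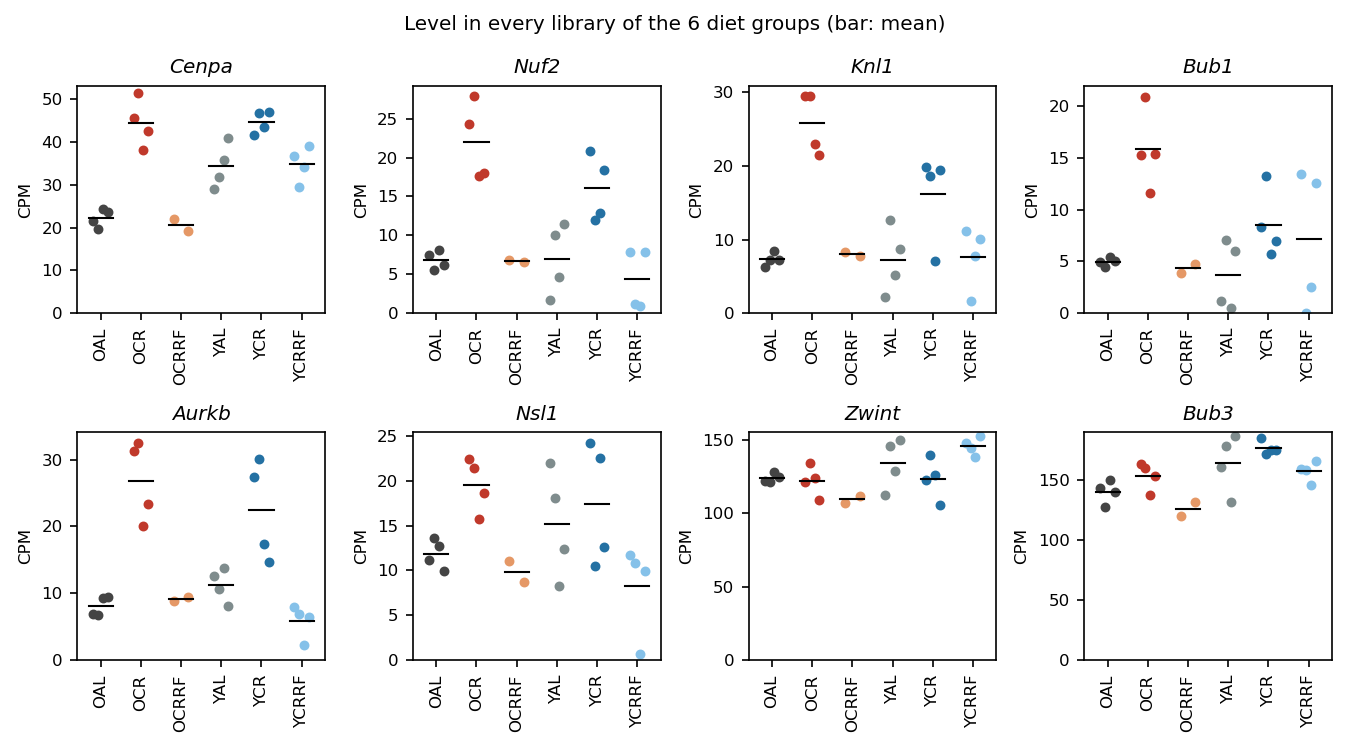
CPM of 8 of the genes in every library of the 6 diet groups, with each group's mean as a bar and axes that start at 0. For Cenpa, Nuf2, Knl1, Bub1, Aurkb and Nsl1 the 4 OCR points lie above all OAL and OCRRF points, while Zwint and Bub3 lie between 107 and 164 CPM in all old libraries.

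The same question was put to young mice after 4 weeks of CR. Between YCR and YAL HSCs none of the 39 genes was called with edgeR, beside 48 of 18680 genes tested (0.257%). At an unadjusted p below 0.05 with a fold change above 1.2, 11 were higher in YCR and none lower, beside 3.64% of all genes that were higher. On the log2 scale the median was 0.41 (0.01 over all genes), and 35 of the 39 values were above 0. Every YCR library was above every YAL library for Cenpa, Ndc80, Nuf2, Mad2l1, Aurkb and Sgo1. How often this held over all genes was not counted. Aurkb was at 12.5, 10.7, 13.7 and 8.13 CPM in YAL and 27.5, 30.2, 17.4 and 14.7 in YCR (1.01 ± 0.28, adjusted p = 0.213), with the lowest YCR library just above the highest YAL one. Cenpa was at 29.0, 31.7, 35.8 and 40.9 CPM in YAL and 41.6, 46.6, 43.4 and 46.8 in YCR (0.40 ± 0.16, adjusted p = 0.438). Sgo1 was at 5.32, 2.71, 9.45 and 5.71 CPM in YAL and 9.59, 16.5, 12.8 and 14.0 in YCR (1.21 ± 0.37, adjusted p = 0.276). Low members scattered widely between young libraries. Bub1 was at 1.18, 7.06, 0.476 and 6.04 CPM in YAL and at 8.36, 13.2, 5.73 and 6.94 in YCR, and the median SE over the 39 was 0.27 here and 0.14 between OCR and OAL. DESeq2 called 3 of the 39 (Aurkb, Cdca8 and Mad2l1), beside 452 of all genes, and the fit without a filter on low counts called 2 (Aurkb and Nuf2), beside 368 of all genes. Young libraries fell into 2 depth classes, each with 2 YAL and 2 YCR libraries. Within the shallower class (17194907 to 19876694 counts) the median was 0.44 with 35 values above 0, and within the deeper one (30846248 to 35676728 counts) 0.42 with 33 above 0, and neither class gave a call.

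Refeeding of young mice likewise gave no call with edgeR between YCRRF and YCR HSCs, beside 2 of 19535 genes tested (0.0102%). The median log2 fold change of the 39 was -0.49 (0.02 over all genes), 35 values were below 0, and 15 genes were lower at an unadjusted p below 0.05, beside 3.28% of all genes. Aurkb was at 8.00, 6.87, 2.30 and 6.39 CPM in YCRRF, each below every YCR library (-1.95 ± 0.41, adjusted p = 0.214). Spc25 had -1.27 ± 0.30 (adjusted p = 0.229) and Incenp -0.79 ± 0.22 (adjusted p = 0.340). DESeq2 called 3 of the 39 lower, beside 268 of all genes, the fit without a filter on low counts 5, beside 275, and 1 fit of all groups 5, beside 538. Some members were low in YCRRF replicates 2 and 3. Cenpi was at 6.56, 1.31, 0.141 and 5.11 CPM and Nuf2 at 7.88, 1.19, 0.919 and 7.85 CPM in the order of the replicate numbers. Bub1 had no count in replicate 2, and Ska1 was at 0.805, 0.437, 0 and 2.74 CPM, low in 3 of the 4 libraries. Markers of other cells moved in the same comparison, and their part in it was not tested. All 5 tested markers of B and T cells and all 6 of macrophages had values below 0 (2 and 3 at an unadjusted p below 0.05), and 8 of 10 HSC markers had values above 0. B and T cell markers summed to 12.6 to 60.2 CPM in YCR and 1.46 to 13.1 CPM in YCRRF. Against YAL, YCRRF HSCs had none of the 39 called and no gene called at all among 19334 tested (0%), a median of -0.15, and 4 members lower at an unadjusted p below 0.05 (Aurkb, Spc24, Spc25 and Pmf1), beside 1.86% of all genes. Genes of all kinds at an unadjusted p below 0.05 numbered 714 there, and DESeq2 called 15, none of them a member.

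The response to lifelong CR in old mice and that to short-term CR in young mice were compared with the 4 groups in 1 fit, as the OCR response minus the YCR response. Length of CR, age and the set of libraries all differ between these responses and cannot be told apart. None of the 39 genes was called with edgeR, beside 12 of 28328 genes tested (0.0424%), and DESeq2 called 1 (Spc24), beside 182 of all genes. At an unadjusted p below 0.05, 15 of the 39 had the larger response in old mice, beside 3.98% of all genes. The median difference was 0.52 on the log2 scale with 36 of 39 above 0. Spc24 had the smallest p in edgeR (1.14 ± 0.29, adjusted p = 0.237). For Sgo1 (0.18 ± 0.41) and Mad2l1 (0.19 ± 0.19) the old and young responses lay close to each other relative to their error. Mean levels under ad libitum feeding were lower in OAL than in YAL for 35 of the 39 genes. For some, Cenpa, Spc24, Spc25, Cenpm and Cdca8 among them, every OAL library was below every YAL library. The share of all genes with such a gap was not counted. For Cenpa the means were 22.2 and 34.4 CPM and for Spc24 8.81 and 18.2 CPM. Age and the set of libraries cannot be told apart, so no test is given.

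For transplanted HSCs the question was whether less Kdr, which was itself lower in OCR, moved these genes. Kdr had a log2 fold change of -1.35 ± 0.25 in KdrKD against GScr (unadjusted p = 4.80e-04, adjusted p = 0.247, edgeR). None of the 39 genes was called with edgeR, beside 3 of 20098 genes tested (0.0149%). At an unadjusted p below 0.05 with a fold change above 1.2, 13 were higher and none lower, beside 2.99% of all genes that were higher. Over the 39 genes the median was 0.26 on the log2 scale (0.00 over all genes), and 38 values were above 0. All 4 NDC80 subunits were among the 13: Ndc80 (0.69 ± 0.16), Spc25 (0.50 ± 0.13), Nuf2 (0.43 ± 0.14) and Spc24 (0.29 ± 0.12). Ndc80 was at 29.7 and 23.8 CPM in GScr and at 51.2, 47.0, 36.9 and 37.8 in KdrKD, where all 4 were higher (unadjusted p = 0.00243, adjusted p = 0.325). Sgo1 was at 23.0 and 21.1 CPM in GScr and at 41.3, 39.4, 27.6 and 27.1 in KdrKD (0.62 ± 0.20, adjusted p = 0.411), and KdrKD replicates 1 and 2 stood above 3 and 4 in both genes. Knl1, Cenpf and Birc5 had 0.42 ± 0.12, 0.44 ± 0.12 and 0.42 ± 0.15, and Zwint, at 141 and 142 CPM in GScr and 159, 186, 155 and 150 in KdrKD, 0.20 ± 0.09. Mki67 was at 0.08 ± 0.12. The count at an unadjusted p rests on single libraries: without GScr replicate 2 it was 2, and over all libraries left out in turn it ran from 2 to 16. DESeq2 called 3 of the 39 (Cenpf, Ndc80 and Spc25), beside 302 of all genes. Markers of granulocyte and monocyte progenitors summed to 150 and 232 CPM in GScr and to 254 to 1373 CPM in KdrKD, with 6 of 6 above 0 and 4 at an unadjusted p below 0.05. All 10 HSC markers had values below 0 in the same comparison, 5 of them at an unadjusted p below 0.05. Their part in these values was not tested.

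**Figure D4:**
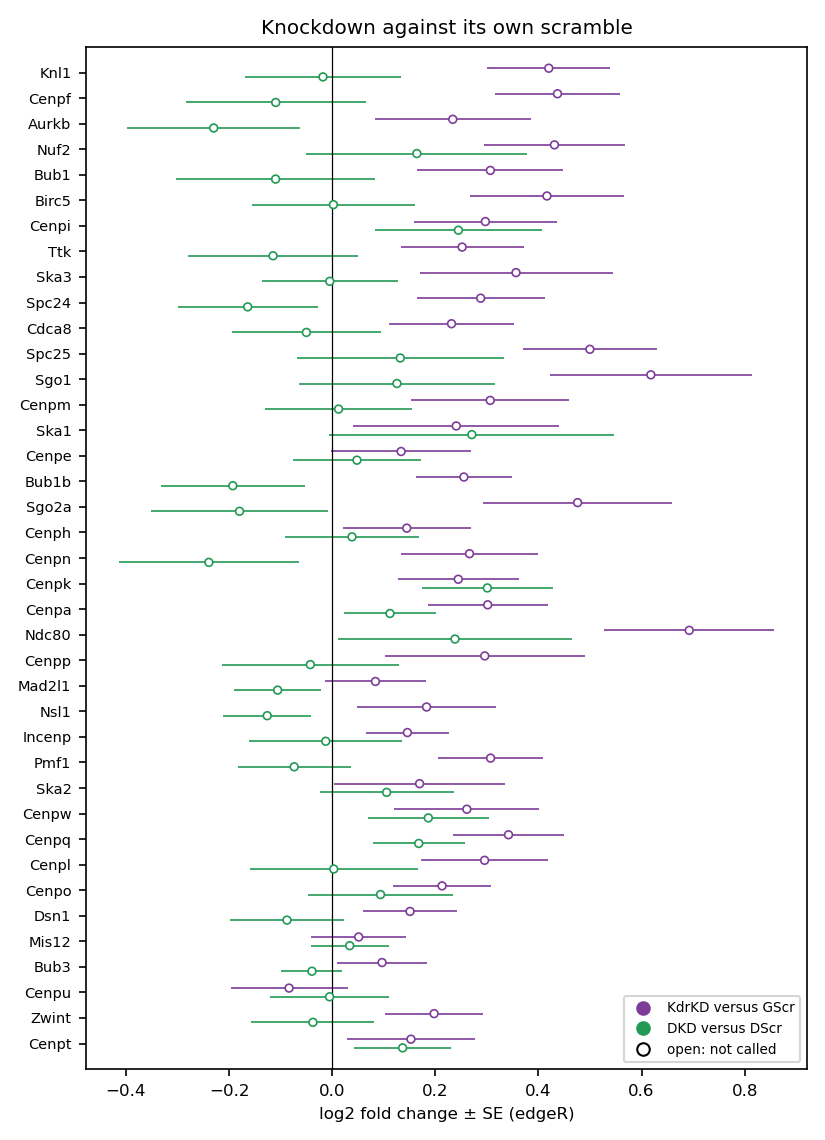
Log2 fold change ± SE (edgeR) of each of the 39 genes in the Kdr knockdown (purple) and in the Kdr with Bmpr1a knockdown (green), each against its own scramble. All points are open because none passed the adjusted call; 38 of the 39 purple points and 19 of the green ones lie above 0.

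In the double knockdown the libraries of both Bmpr1a hairpins were tested together as 1 group. Kdr was at -1.86 ± 0.37 and Bmpr1a at -1.29 ± 0.72 on the log2 scale against DScr. None of the 39 genes was called with edgeR or DESeq2, beside 1 of 20072 genes tested with edgeR (0.00498%). The median was -0.01, 19 values were above 0, and 1 gene, Cenpk (0.30 ± 0.13), was higher at an unadjusted p below 0.05, beside 2.82% of all genes. The 2 libraries of each Bmpr1a hairpin did not lie together: the median over the 39 of the log2 difference from the DScr mean was -0.11 and 0.05 for the first hairpin and -0.18 and 0.23 for the second. Ndc80 was at 52.4 and 40.0 CPM in DScr, 45.5 and 59.4 with the first hairpin and 40.8 and 71.9 with the second, so that 2 of the 4 DKD libraries lay above both DScr libraries and 2 between them. Tested as the Kdr response minus the double response, none of the 39 and no gene among 21250 was called with edgeR (0%), with 760 of all genes at an unadjusted p below 0.05, and DESeq2 called 3 genes, none of the 39. The median difference was 0.28 with 36 of 39 above 0, and 6 genes had an unadjusted p below 0.05 (Sgo2a, Cenpf, Cenpn, Spc24, Bub1b and Pmf1), beside 1.82% of all genes. That count was 9 with a replicate block. Leaving out single libraries moved it from 1 (GScr replicate 2 or DScr replicate 1) to 15 (DKD_shRNA2 replicate 2). Markers of granulocyte and monocyte progenitors differed in the same direction as the median, 6 of 6 above 0 with a median of 4.90 and 5 at an unadjusted p below 0.05. In DKD against DScr all 6 had values below 0 (median -1.83), with sums of 159 to 721 CPM in DKD and 682 and 1187 CPM in DScr, while the 3 multipotent progenitor markers had values above 0. Their part in these differences was not tested. The 39 genes summed to 1705 and 1871 CPM in GScr and 2373 and 2612 CPM in DScr, so the 2 scrambles, which differ in reporter and in their number of viruses, themselves stood apart.

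Chromatin at the start sites was read in OCR and OCRRF HSCs. An ATAC-seq peak lay within 1 kb of a start site of 38 of the 39 genes, 1 peak each, and Cenpo had none. These peaks were open at a median of 5.19 log2 CPM, beside 4.10 over 17682 tested peaks at all start sites. Of the 38, 1 was called between OCRRF and OCR, the peak of Nsl1, beside 273 of 123372 peaks tested (0.221%) and 21 of the 17682 at start sites (0.119%). It was at 13.6, 13.5, 13.5 and 13.5 CPM in OCR and at 8.81 and 8.71 CPM in OCRRF, with no overlap, a log2 fold change of -0.63 ± 0.14 and an adjusted p of 0.0234 (edgeR). Leaving out OCR replicate 1, OCR replicate 2 or either OCRRF library ended that call. The median log2 fold change of the 38 peaks was 0.02, with a median SE of 0.08, and 18 were below 0. At an unadjusted p below 0.05 were 4 of the 38 (10.5%), those of Nsl1, Cenph (-0.45 ± 0.17), Nuf2 (-0.26 ± 0.10) and Cenpf (-0.20 ± 0.07), beside 12.8% of start-site peaks and 11.7% of all peaks, so the share is not above the background. A p that misses the threshold does not show that a peak was unchanged.

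**Figure D5:**
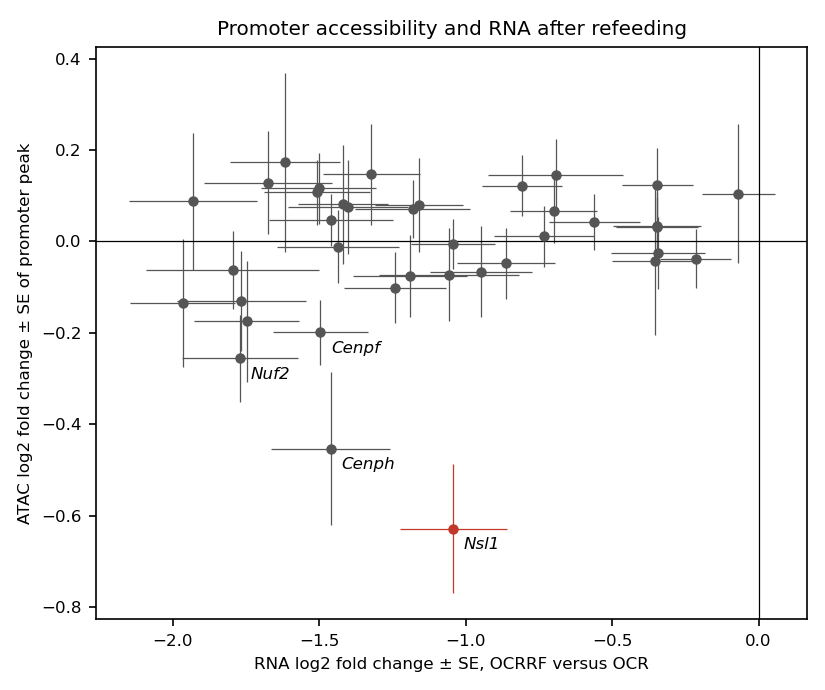
Change of the ATAC-seq peak at the start site (vertical, log2 fold change ± SE) against change of the RNA (horizontal, log2 fold change ± SE) in OCRRF versus OCR HSCs, 1 point for each of the 38 genes with a peak. All points lie left of 0 for RNA, between -1.97 and -0.07, while 37 peaks lie between -0.45 and 0.17; the red point is Nsl1, the one called peak, and the other named genes had an unadjusted p below 0.05.

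The histone marks were measured in OCR HSCs alone and describe a level, not a change. H3K4me3, a mark of active promoters, had a median signal per base of 25.0 and 25.1 at the 39 genes in its 2 libraries, beside 10.8 and 10.2 over all genes. The median percentile among all genes was 67.0 and 68.7, from Cenpi at 45.2 to Ska2 at 95.1 in the first library. H3K27me3, the Polycomb mark of silent promoters, had a median of 0.291 and 0.280, beside 0.341 and 0.344. Among its higher values in the set were those of Bub1 (1.04 and 1.01), Ska1 (1.10 and 0.910) and Sgo2a (0.836 and 0.987), at percentiles of 74.9 to 80.5. For H3K4me3, 37 and 38 of the 39 genes were above the 50th percentile in the 2 libraries. All 8 genes not called in OCR were among them in both libraries, from Cenpu at 61.0 to Bub3 at 85.5.

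PU.1, an ETS transcription factor of blood cells, was read from its peaks near the start sites. Within 1 kb of a start site a peak was called at 1 and 2 of the 39 genes in the 2 OAL libraries, at 5 and 3 in OCR and at 2 and 1 in OCRRF, beside 2.91% and 2.65%, 5.16% and 3.54%, and 2.44% and 2.01% of all genes. Peaks were called on each library and their number differed, with 2900 and 3046 in OAL, 3852 and 5464 in OCR and 2262 and 2817 in OCRRF, so such counts move with how much was called. Cenpa had a peak in all 6 libraries, with a fold enrichment of 9.00 to 14.8. Cenph had one in both OCR libraries and in OCRRF replicate 1, Mad2l1 in both OCR libraries and OAL replicate 2, and Nuf2 and Incenp in OCR replicate 1. The part of the Cenpa peak that is upstream of the gene's annotated start and common to all 6 libraries is shown, since it is the one site found in each library. It lies at chr5:30666580-30666776 (GRCm38, plus strand, 197 bases), with the 6 matches to GGAA, the core letters of ETS sites, on either strand in capitals.
Cenpa peak: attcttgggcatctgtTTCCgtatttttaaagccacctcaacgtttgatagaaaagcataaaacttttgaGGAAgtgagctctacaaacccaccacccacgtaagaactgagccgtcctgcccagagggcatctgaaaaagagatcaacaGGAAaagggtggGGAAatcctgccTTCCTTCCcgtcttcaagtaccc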

How the data were processed

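The 39 genes and the other gene lists were chosen with earlier results of these data known. For RNA-seq the authors trimmed reads with trim galore 0.4.3 and cutadapt 1.12, aligned them with STAR to mm10 on GENCODE M22 genes and deposited raw counts per gene from featureCounts. How strand and multi-mapping reads were counted is not given in the sources used here. For ATAC-seq the deposited counts are reads in 131918 consensus peaks, and a transposase shift is not given in the sources used here. The deposited histone values are a signal at each promoter, averaged per base over 750 bp (H3K4me3) or 2000 bp (H3K27me3) and scaled to a common read number. The highest transcript of each gene was used. For PU.1 the deposited peaks, called with MACS2 on each library, give a score, -log10 values of p and q, and a ratio, the fold enrichment over background. Fold changes and q were used as the authors gave them, the deposited signals and peaks carry no counts, so no counting error is given for them, and all peaks listed were kept. The antibody of the second PU.1 replicate is not in its label.

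Samples were grouped by the labels. Counts were tested in R 4.3.3 with edgeR 4.0.16 (filterByExpr, TMM, glmQLFit, glmQLFTest), with Benjamini-Hochberg adjustment over all genes or peaks tested. Each comparison used its own groups, and each of the 2 differences between responses used 4 groups together. The libraries of the 2 Bmpr1a hairpins were taken as 1 group (DKD) in every test. The SE is the absolute log2 fold change over the square root of F. ATAC-seq peaks counted as called when the adjusted p was below 0.05, the fold change over 1.5 and the log2 CPM over 1.5. The fits recovered 170 of 200 genes changed in simulated data of OCR versus OAL, 103 of 200 of YCR versus YAL and 137 of 200 of KdrKD versus GScr. Recovery at the levels and fold changes of the genes described here was not tested. No libraries agreed within sampling noise, the lowest chi-square per degree of freedom between replicates being 8.17. Same-numbered libraries did not deviate together (correlations between OCR and OAL of -0.02 to 0.15), so the numbers were not taken as pairs. ATAC-seq libraries held 15721335 to 19558148 counts in peaks. Columns of no mapped sample numbered 0. Every library's level is given for the gene with the largest and with the smallest change in each role in OCR, and for up to 6 genes called in another comparison. Other genes shown by library were chosen after their values were seen. Coordinates are of GRCm38 (mm10), gene starts of GENCODE M21. Alternatives were DESeq2 1.42.0, its size factors, other filters, a replicate block, 1 fit of all groups, and each library left out in turn.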

Additional observations from a re-analysis of the deposited data

Results flagged for a closer look

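In 127 groups of 4 libraries, a single library stood far from the other 3 by Dixon's criterion in 6, and chance gives about 1 in 20. In KdrKD, Cenpe was at 39.5 CPM in replicate 3, against 51.7 to 53.9 in the others, and Cenpu at 34.8 CPM in replicate 1, against 29.5 to 29.8. In the young libraries, Nsl1 was at 0.601 CPM in YCRRF replicate 3, against 9.96 to 11.7, Knl1 at 7.06 CPM in YCR replicate 3, against 18.7 to 19.8, and Sgo1 at 10.2 CPM in YCRRF replicate 4, against 1.62 to 3.04. At the Nsl1 promoter the ATAC-seq peak of OCR replicate 1 was at 13.6 CPM against 13.5 in the other 3, a gap of no practical size that stands out because those 3 were so close.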

How the results depend on the processing

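In OCR versus OAL 31 of the 39 genes were called, and 29 to 35 without 1 library. In OCRRF versus OCR 31 were called, and 26 to 34. DESeq2 called 34 in the first of these comparisons and 33 in the second. One fit of all 6 diet groups gave 13 and 4, and 5 in YCRRF versus YCR, beside 212, 64 and 538 of all genes. The replicate block gave 30 and 36 in the old comparisons and 21 genes at an unadjusted p (13 without it) in KdrKD versus GScr, and it moved no other count of called genes. In OCRRF versus OAL it left 1 gene lower at an unadjusted p, in place of 2. Where edgeR called none, DESeq2 called 3 in OCRRF versus OAL, 3 in YCR versus YAL, 3 in YCRRF versus YCR, 3 in KdrKD versus GScr and 1 in the old minus young response, and the fit without a filter on low counts called 2 in YCR versus YAL and 5 in YCRRF versus YCR. Without 1 library, the genes at an unadjusted p ran from 2 to 16 in KdrKD versus GScr and from 0 to 2 in DKD versus DScr (0 with scaling factors from genes of at least 5 CPM, 0 without DScr replicate 1 or DKD_shRNA1 replicate 2, and 2 without DKD_shRNA2 replicate 2), and the called ATAC peaks from 0 to 1. Of 363 refits of the log2 fold changes of named genes, 337 kept their side of the threshold and their direction. The 17 that lost the call all came from 1 fit of all groups, 1 gained it (Mis12), and 8 reversed, all of genes near 0. These were Cenpu (-0.0227 without OAL replicate 3, -0.0405 without OCR replicate 1, and at most 0.0749, without 1 library) and Zwint (0.00705 with at least 10 counts in every library, 0.0207 with scaling factors from genes of at least 5 CPM, and -0.0660 to 0.0409 without 1 library, 4 of these above 0). The cause of these shifts was not tested. Scaling factors from genes of at least 5 CPM moved the median of all genes in OCRRF versus OCR from 0.11 to 0.24 and that of the 39 from -1.18 to -1.03. With 2 OCRRF and 2 scramble libraries, and young libraries that scatter at low levels, small changes were not detectable.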
